A study of Homo sapiens with 18 samples.

Results

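The superoxide dismutases SOD1, SOD2 and SOD3, catalase (CAT), glutathione reductase (GSR) and the peroxiredoxins PRDX1, PRDX2, PRDX3, PRDX5 and PRDX6 were followed in 18 arrays of K562 cells, a human erythroleukemic line derived from chronic myeloid leukemia. Probe sets were taken as those whose annotated symbol was exactly 1 of these 10 genes. There were 17 such probe sets of 54675 on the array, and they covered 9 of the 10 genes, among 19775 genes that at least 1 probe set named alone. PRDX5 was not analysed here. Each gene was read on its main probe set, the one with the highest mean over the 18 arrays, and the other probe sets were reported beside it.

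All cells were K562 cells transduced with a retroviral vector that carried a calreticulin gene, and they were purified on the NGFR marker of the vector. The vectors were LCALRwtIDN with wild-type calreticulin (CALRwt), LCALRdel52IDN (CALRdel52) and LCALRins5IDN (CALRins5). Cells of each vector were either untreated or exposed to 5 μg/mL of melittin (MEL), the main toxin of bee venom, for 24 h to induce oxidative stress, which gave 6 groups of 3 arrays. CALRdel52 and CALRins5 cells were pooled as mutated cells where both were set against CALRwt, and every comparison was therefore between cells that overexpressed a form of calreticulin. By the methods, RNA of cells without MEL was taken directly upon sorting for NGFR, in 3 independent experiments. RNA of MEL cells was taken at the end of the 24 h of exposure. It is not stated whether the untreated arrays used here are the cells taken at sorting or were cultured alongside the MEL cells. Unless they were cultured for the same 24 h, MEL and time in culture cannot be told apart. No source used here says whether arrays with the same replicate number share an experiment. For the MEL arrays, and for untreated arrays not taken at sorting, no source used here says that replicates were separate cultures. In that case p-values reflect sample-to-sample spread alone, which may be technical.

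Superoxide dismutases turn superoxide into hydrogen peroxide and oxygen, SOD1 with copper and zinc mainly in the cytosol, SOD2 with manganese in mitochondria and SOD3 outside the cell. Hydrogen peroxide is then removed by catalase in peroxisomes and by peroxiredoxins, thiol enzymes that are recharged by thioredoxin, or by glutathione in the case of PRDX6. Thioredoxin reductases and glutathione reductase draw the electrons for this from NADPH, and SOD1, catalase and PRDX2 are well known as antioxidant enzymes of erythroid cells.

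Promoter windows of SOD2, which was called, and of CAT, whose probe sets differed, are shown to compare the elements before their starts. RefSeq windows (GRCh38.p14) were used for 6 of the 10 genes, namely SOD2, SOD3, CAT, PRDX2, PRDX3 and PRDX5. They gave 10 starts in all, of which 4 were of SOD2, and the 250 bases before each start were searched on both strands. Windows on the chromosome of GSR were left out for these genes and the genes that work with them, but not for the share of all promoters. The motifs were TGACNNNGC, the core of the antioxidant response element bound by NRF2 with small MAF proteins, the GC box GGGCGG and the CCAAT box CCAAT. The antioxidant element core was found in 0 of the 10 member windows, against 10.9% of 35116 promoters of the table. These windows are too few to tell their count from that share. No window of SOD1, GSR, PRDX1 or PRDX6 was searched, so the element was not examined for these genes. The GC box was found in 9 of the 10 windows and CCAAT in 4, against 42.6% and 32% of all promoters. Both windows below are printed 5′ to 3′ on the strand of the gene, with matches in capitals. SOD2 (chr6:159693242-159693491, minus strand, the most downstream of 4 starts) held 6 GC boxes, of which 2 pairs overlapped, and CAT (chr11:34438684-34438933, plus strand) held 1 GC box and 5 CCAAT boxes. A match is a description of the letters and not a bound site.
SOD2: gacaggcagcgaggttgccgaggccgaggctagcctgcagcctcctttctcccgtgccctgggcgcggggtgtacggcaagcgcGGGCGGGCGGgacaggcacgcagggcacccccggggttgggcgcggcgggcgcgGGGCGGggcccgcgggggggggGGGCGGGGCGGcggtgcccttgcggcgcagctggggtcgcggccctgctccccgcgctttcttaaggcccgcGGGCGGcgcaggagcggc
CAT: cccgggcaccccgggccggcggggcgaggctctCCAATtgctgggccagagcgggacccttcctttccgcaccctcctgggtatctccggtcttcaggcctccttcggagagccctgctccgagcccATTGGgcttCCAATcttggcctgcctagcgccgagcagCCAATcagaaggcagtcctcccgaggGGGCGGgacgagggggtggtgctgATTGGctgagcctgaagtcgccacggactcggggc

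Upon MEL exposure, SOD1, SOD2 and PRDX6 were lower and none of the measured members was called higher on its main probe set. SOD1 was 0.749 of its untreated level over the 3 vectors, SOD2 was 0.791 and PRDX6 was 0.897. CAT, GSR, PRDX1, PRDX2, PRDX3 and SOD3 did not pass the test on their main probe sets. The members thus gave 3 calls of 9, all lower, at a Benjamini-Hochberg adjusted p under 0.05 in limma, a linear model with moderated variances, fitted here over the 6 groups. The share called was 36.7% of the 19775 main probe sets and 33.7% of all 54675 probe sets, and 18.1% of main probe sets were called lower. The members' count was therefore near the background of the array, while their median log2 difference was -0.09 against 0.04 for all main probe sets. Values are log2 RMA expression values throughout, and less RNA per cell cannot be told apart from fewer cells that make it.

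**Figure D1:**
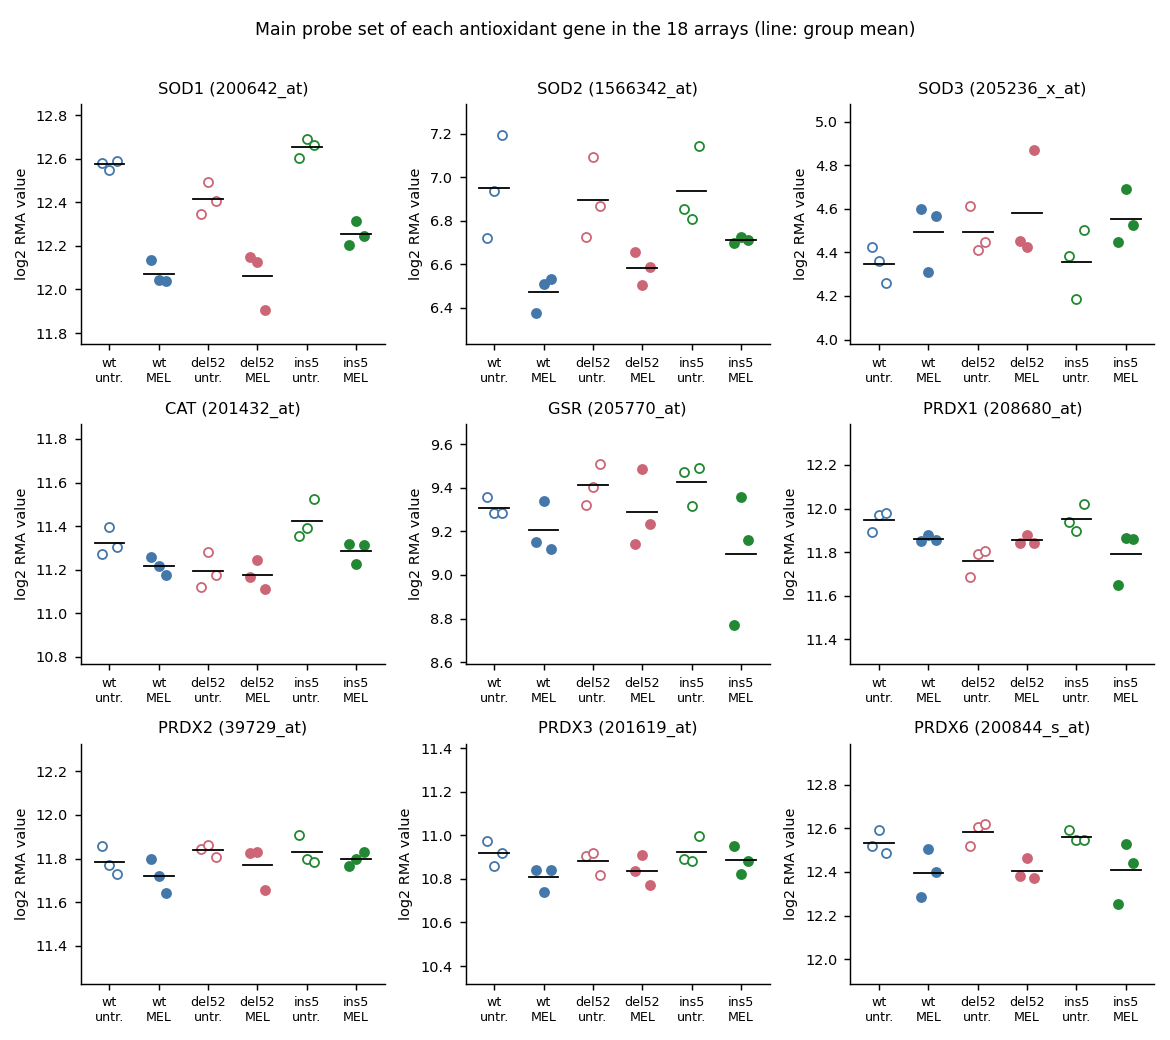
Log2 RMA value (vertical axis, the same span of 1.1 in each panel) of the main probe set of each gene in the 18 arrays, by vector and treatment (horizontal axis), with open points for untreated cells, filled points for MEL and a line at the mean of 3 arrays. SOD1 is the gene whose 9 MEL arrays all lie under its 9 untreated arrays.

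SOD1, the cytosolic enzyme (probe set 200642_at), was the member with the clearest separation. In untreated cells its values were 12.58, 12.55 and 12.59 with CALRwt, 12.35, 12.49 and 12.40 with CALRdel52, and 12.60, 12.69 and 12.66 with CALRins5. With MEL they were 12.14, 12.04 and 12.04 with CALRwt, 12.15, 12.13 and 11.91 with CALRdel52, and 12.20, 12.31 and 12.25 with CALRins5. The 9 MEL arrays, from 11.91 to 12.31, did not overlap with the 9 untreated arrays, from 12.35 to 12.69, a separation in this direction that was shared by 5.31% of all probe sets. SOD1 fell by 0.42 on the log2 scale over the 3 vectors (SE 0.05, 95% interval -0.52 to -0.32, limma adjusted p 2.84e-06). It fell by 0.50 with CALRwt (SE 0.08, adjusted p 5e-04), by 0.35 with CALRdel52 (adjusted p 0.00961) and by 0.40 with CALRins5 (adjusted p 0.00418). In CALRdel52 cells the call rested in part on MEL replicate 3, the lowest SOD1 value of all arrays, without which the difference was -0.28 with an adjusted p of 0.0562. In the order of group means, CALRins5 untreated was highest, followed by CALRwt untreated, CALRdel52 untreated, CALRins5 MEL, CALRwt MEL and CALRdel52 MEL. Neighbours did not overlap in this order except the last 2, which differed by 0.01. The share of all probe sets with such an order was not counted.

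SOD2, the mitochondrial enzyme, was named alone by probe set 1566342_at. In untreated cells it was at 6.72, 6.93 and 7.19 with CALRwt, 6.72, 7.09 and 6.87 with CALRdel52, and 6.85, 6.81 and 7.14 with CALRins5. With MEL it was at 6.37, 6.51 and 6.53 with CALRwt, 6.66, 6.50 and 6.59 with CALRdel52, and 6.70, 6.73 and 6.71 with CALRins5. MEL and untreated arrays did not overlap within any of the 3 vectors, although the highest MEL array, of CALRins5 cells, lay just above the lowest untreated array of the series. Such a lack of overlap, in either direction, was shared by 34.8%, 29.8% and 29.9% of all probe sets in CALRwt, CALRdel52 and CALRins5 cells. The share without overlap in all 3 vectors was not counted. SOD2 fell by 0.34 over the 3 vectors (SE 0.07, 95% interval -0.48 to -0.19, limma adjusted p 0.001) and by 0.48 with CALRwt (SE 0.12, adjusted p 0.0113). The differences of -0.31 with CALRdel52 (adjusted p 0.0985) and -0.22 with CALRins5 (adjusted p 0.282) did not pass the test. Without CALRwt untreated replicate 3, the highest array, the CALRwt difference was -0.36 with an adjusted p of 0.0768. Untreated group SDs ranged from 0.18 to 0.24, against 0.01 to 0.09 with MEL, and the 3 untreated groups overlapped one another.

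A further 4 probe sets were annotated to both SOD2 and SOD2-OT1, a transcript that overlaps it, so that their signals cannot be told apart. On 216841_s_at the 9 untreated arrays spanned 8.25 to 8.45 and the 9 MEL arrays 7.43 to 8.04, with a fall of 0.59 (SE 0.07, limma adjusted p 3.07e-06). These arrays did not overlap, as in this direction for 5.31% of all probe sets. The fall on this probe set was 0.82 with CALRwt and 0.62 with CALRdel52, and the difference with CALRins5 was -0.34 (adjusted p 0.0721). Its response in CALRins5 minus CALRwt cells was 0.48 (95% interval 0.13 to 0.82, unadjusted p 0.00997, limma adjusted p 0.955), which was not called. On 215223_s_at the untreated arrays spanned 8.31 to 8.49 and the MEL arrays 7.67 to 8.23, with a fall of 0.41 (SE 0.06, adjusted p 9.2e-05). The last 2 probe sets for the pair did not pass the test, with differences of -0.15 on 221477_s_at and -0.12 on 215078_at, the latter a dim probe set with a mean of 2.79. All 5 probe sets that name SOD2 thus had a difference below 0, of which 3 were called, where 16.6% of all probe sets were called lower. The share of all probe sets with a difference below 0 was not counted.

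SOD3, the secreted enzyme (205236_x_at), was dim, with a mean of 4.47 that lay under the median probe set mean of 4.61. Its untreated arrays ranged from 4.19 to 4.62 with a median of 4.41, and its MEL arrays from 4.31 to 4.87 with a median of 4.53, so that the treatments overlapped in each vector. The difference with MEL was 0.14 (SE 0.07, 95% interval -0.01 to 0.29, limma adjusted p 0.13).

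**Figure D2:**
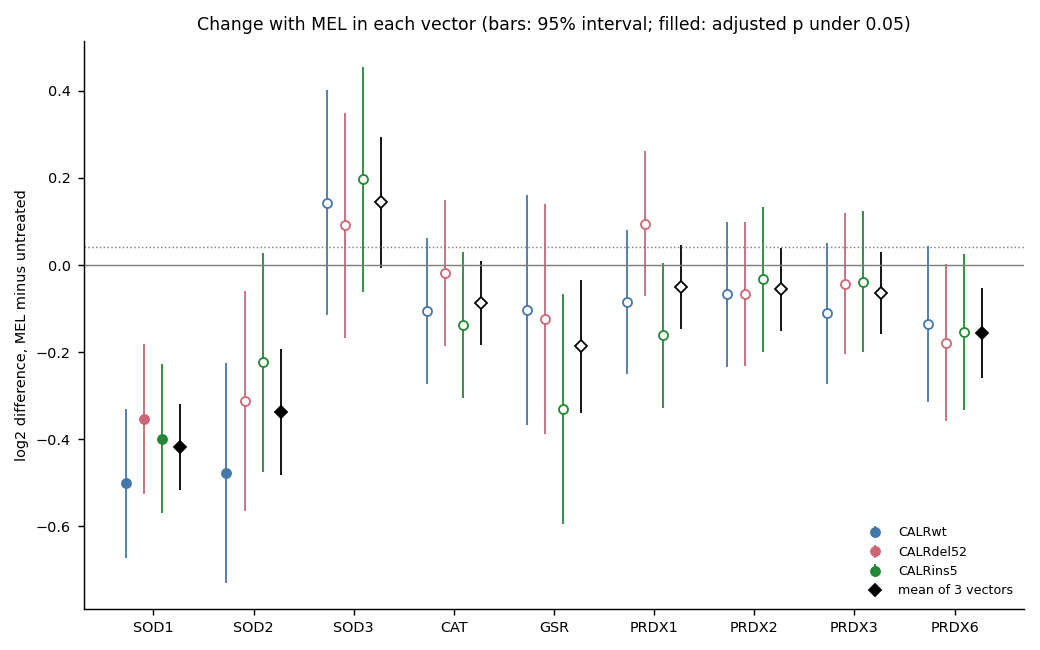
Log2 difference between MEL and untreated cells (vertical axis) for the main probe set of each gene (horizontal axis), with circles for each vector, diamonds for the mean of the 3 vectors, bars for the 95% interval of limma and filled symbols for an adjusted p under 0.05. The dotted line is the median of all main probe sets, 0.04, and the 4 SOD1 symbols are filled, from -0.50 to -0.35.

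CAT, the heme enzyme that splits hydrogen peroxide, gave different results on its probe sets. On the main one (201432_at) the untreated values were 11.27, 11.40 and 11.30 with CALRwt, 11.12, 11.28 and 11.17 with CALRdel52, and 11.35, 11.39 and 11.52 with CALRins5. The MEL values were 11.26, 11.22 and 11.18 with CALRwt, 11.16, 11.25 and 11.11 with CALRdel52, and 11.32, 11.23 and 11.31 with CALRins5. MEL arrays were below the untreated arrays in CALRwt and CALRins5 cells, where 34.8% and 29.9% of all probe sets were without overlap in either direction. They overlapped with them in CALRdel52 cells, and the difference over the vectors was -0.09 (SE 0.05, 95% interval -0.18 to 0.01, limma adjusted p 0.156). Probe set 211922_s_at, in contrast, fell by 0.41 (SE 0.08, adjusted p 0.000613), from untreated values of 9.04 to 9.59 to MEL values of 8.52 to 9.18. On this probe set the lowest array was CALRins5 MEL replicate 1, and without that array the fall of 0.58 in CALRins5 cells became -0.38 with an adjusted p of 0.0677. Its fall of 0.43 in CALRwt cells (adjusted p 0.0413) did not pass without any 1 of the 6 CALRwt arrays (adjusted p 0.0506 to 0.149) nor without CALRins5 untreated replicate 1 (0.0506). The dim probe set 215573_at differed by -0.16 (adjusted p 0.12). Which stretch of the CAT transcript each probe set reads was not examined here.

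GSR, which reduces oxidised glutathione with NADPH, spread widely with MEL. Its main probe set (205770_at) was at 9.36, 9.28 and 9.28 in untreated cells with CALRwt, 9.32, 9.40 and 9.51 with CALRdel52, and 9.47, 9.32 and 9.49 with CALRins5. With MEL it was at 9.15, 9.34 and 9.12 with CALRwt, 9.14, 9.49 and 9.23 with CALRdel52, and 8.77, 9.36 and 9.16 with CALRins5. Replicate 2 of each MEL group lay within the untreated range of 9.28 to 9.51 while the other MEL arrays lay at 9.23 or below, and the MEL group SDs of 0.12 to 0.30 exceeded the untreated SDs of 0.04 to 0.10. The difference over the vectors was -0.19 (SE 0.07, 95% interval -0.34 to -0.03), which had an unadjusted p of 0.0194 and missed the threshold with a limma adjusted p of 0.0559. It passed when arrays were centred on their medians, with a block for the replicate number, with trend and robust moderation, without probe sets of low level, with the mean of both probe sets, or without replicate 2 of any 1 of the MEL groups (adjusted p 0.0146 to 0.0467 in these settings). The other GSR probe set (225609_at) differed by -0.10 (adjusted p 0.287).

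Among the peroxiredoxins, PRDX6 (200844_s_at), which also has a phospholipase activity, was the only member called. It was at 12.52, 12.59 and 12.49 in untreated cells with CALRwt, 12.52, 12.61 and 12.62 with CALRdel52, and 12.59, 12.55 and 12.55 with CALRins5. With MEL it was at 12.29, 12.50 and 12.40 with CALRwt, 12.38, 12.46 and 12.37 with CALRdel52, and 12.25, 12.53 and 12.44 with CALRins5. MEL arrays lay below all untreated arrays of their vector in CALRdel52 and CALRins5 cells, and the arrays overlapped in CALRwt cells. In CALRdel52 and CALRins5 cells, 29.8% and 29.9% of all probe sets were without overlap in either direction. PRDX6 fell by 0.16 over the 3 vectors (SE 0.05, 95% interval -0.26 to -0.05, limma adjusted p 0.0203), and it did not pass within any vector, with differences of -0.14 to -0.18. Its other probe set (200845_s_at) differed by -0.04 (95% interval -0.12 to 0.05, adjusted p 0.549), with untreated arrays at 11.60 to 11.76 and MEL arrays at 11.52 to 11.74. The call was also lost with quantile normalization repeated over the arrays (difference -0.11, adjusted p 0.08).

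The remaining peroxiredoxins moved little on their main probe sets. PRDX2 (39729_at), the abundant cytosolic peroxiredoxin of red cells, spanned 11.73 to 11.91 untreated and 11.64 to 11.83 with MEL, a difference of -0.06 (95% interval -0.15 to 0.04, limma adjusted p 0.371). PRDX3 (201619_at), which works in mitochondria, spanned 10.82 to 11.00 untreated and 10.74 to 10.95 with MEL, a difference of -0.06 (95% interval -0.16 to 0.03, adjusted p 0.287). These intervals leave room for changes of up to 0.16 on the log2 scale. PRDX2 had 3 further probe sets, of which 215067_x_at rose by 0.27 (SE 0.05, adjusted p 0.000429), from 5.49 to 5.80 in untreated cells to 5.76 to 6.24 with MEL. Its name marks a probe set that can cross-hybridise, and its direction was opposite to the other PRDX2 probe sets, 211658_at (-0.03) and 201006_at (-0.12), which were not called. The dimmer PRDX3 probe set 209766_at, at 4.01 to 4.52, differed by -0.07.

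PRDX1 (208680_at), the cytosolic and nuclear peroxiredoxin, was the member whose vectors ran in different directions. In untreated cells it was at 11.89, 11.97 and 11.98 with CALRwt, 11.68, 11.79 and 11.81 with CALRdel52, and 11.94, 11.90 and 12.02 with CALRins5. With MEL it was at 11.85, 11.88 and 11.86 with CALRwt, 11.84, 11.88 and 11.84 with CALRdel52, and 11.65, 11.86 and 11.86 with CALRins5. All MEL arrays were above the untreated arrays in CALRdel52 cells and below them in CALRwt and CALRins5 cells, where 29.8%, 34.8% and 29.9% of all probe sets were without overlap in either direction. The differences with MEL were 0.09 with CALRdel52, -0.08 with CALRwt and -0.16 with CALRins5, and none was called. The response of CALRins5 cells minus that of CALRdel52 cells, a comparison added after the values were seen, was -0.26 (95% interval -0.49 to -0.02, unadjusted p 0.0345, limma adjusted p 0.702), and that of CALRdel52 minus CALRwt was 0.18 (adjusted p 0.936). The untreated CALRdel52 arrays, from 11.68 to 11.81, had the lowest group mean for PRDX1.

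**Figure D3:**
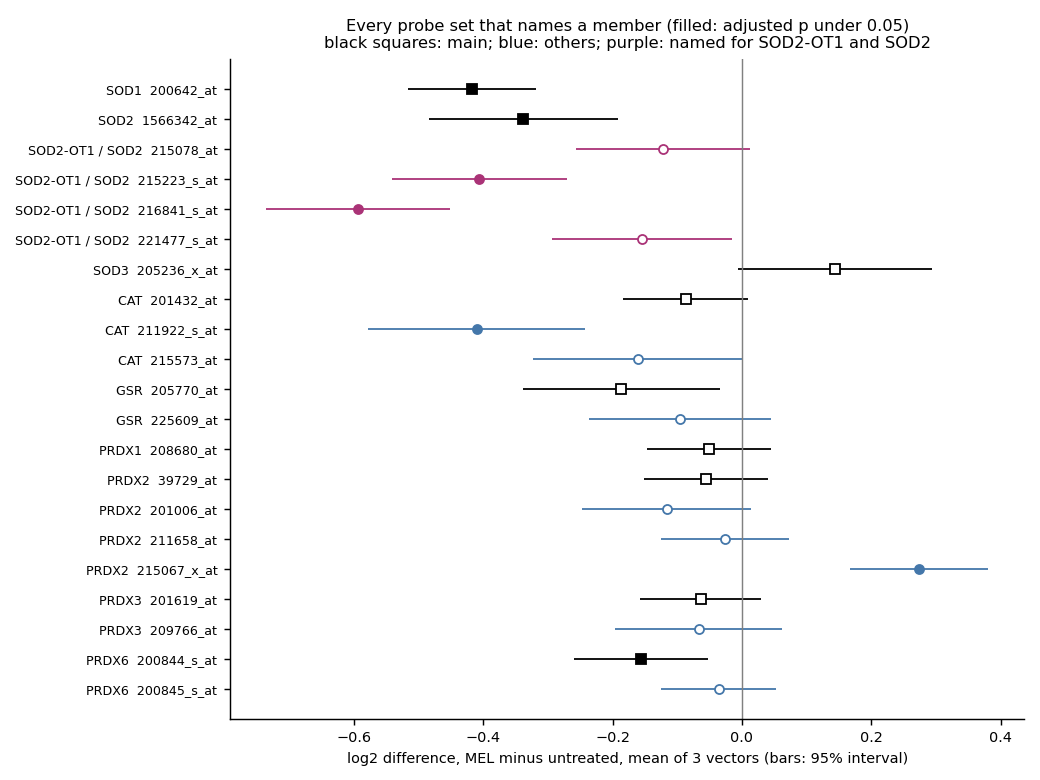
MEL minus untreated log2 difference, averaged over the vectors (horizontal axis, bars for the 95% interval) for each of the 17 probe sets that name 1 member and the 4 that name SOD2 and SOD2-OT1 (vertical axis), with filled symbols for an adjusted p under 0.05. CAT, PRDX2 and PRDX6 each have 1 probe set that was called and at least 1 that was not.

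Signs of RNA quality moved with MEL as well. The GAPDH 3′ signal minus its 5′ signal, a measure that grows as RNA is degraded or shortened, was 0.31 to 0.41 in the 9 untreated arrays and 0.42 to 1.33 in the 9 MEL arrays, highest in CALRins5 MEL replicate 1. With this value as a covariate, SOD1 differed by -0.38 with MEL (limma adjusted p 0.000476) and SOD2 by -0.34 (adjusted p 0.0223). In CALRins5 cells alone, SOD1 then differed by -0.35 and was no longer called (adjusted p 0.0658), against -0.40 without the covariate. GSR differed by 0.02 (adjusted p 0.891), against -0.19 without the covariate. PRDX6 then differed by -0.06 (adjusted p 0.535) and the CAT probe set 211922_s_at by -0.17 (adjusted p 0.0962), against -0.16 and -0.41 without it. Leaving out both arrays that stood apart, CALRins5 MEL replicate 1 and CALRdel52 MEL replicate 3, which correlated least with the others, gave -0.38 for SOD1 (adjusted p 1e-05), -0.34 for SOD2 (adjusted p 0.0039) and -0.13 for PRDX6 (adjusted p 0.063). The erythroid markers GATA1, TAL1, KLF1, HBZ, HBE1 and EPOR were above the array median in all 18 arrays, and MS4A1, CD14 and ALB, markers of B cells, monocytes and liver, were below it in all 18. CD3E at 4.99, EPCAM at 11.2 and COL1A1 at 7.42 were above it in all 18.

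Within single vectors, 2 of 9 members were called with CALRwt (SOD1 and SOD2), 1 with CALRdel52 and 1 with CALRins5 (SOD1 in both), against 18.1%, 13.3% and 11.6% of main probe sets. An effect called in 1 vector and not in another is not a difference between them, so the responses were compared directly. On main probe sets, the response of mutated minus CALRwt cells gave 0 of 9 called members in limma (0 at an unadjusted p under 0.05). CALRdel52 minus CALRwt and CALRins5 minus CALRwt gave 0 as well (0 and 0 at an unadjusted p under 0.05). No probe set of the 54675 was called in these 3 tests (0%). Off the main probe sets, 216841_s_at of SOD2 and SOD2-OT1 had an unadjusted limma p of 0.00997 for CALRins5 minus CALRwt, at a difference of 0.48. For SOD1 the response of mutated minus CALRwt cells was 0.13 (95% interval -0.08 to 0.34) and for SOD2 it was 0.21 (95% interval -0.10 to 0.52). For GSR it was -0.12 (95% interval -0.45 to 0.20). Trend and robust moderation, and no moderation, each gave 0 calls among the members too.

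The level of each enzyme with MEL was also compared between vectors. Mutated against CALRwt cells gave 0 of 9 called members in limma (0 at an unadjusted p under 0.05; 0.086% of main probe sets called), with differences from -0.04 to 0.17. SOD2 was 6.47 ± 0.09 with CALRwt (SD, n = 3), 6.58 ± 0.08 with CALRdel52 and 6.71 ± 0.01 with CALRins5, and the mutated minus CALRwt difference was 0.17 (95% interval -0.04 to 0.39, adjusted p 0.748). SOD1 was 12.07 ± 0.06, 12.06 ± 0.13 and 12.25 ± 0.06 in the same order (SD, n = 3), with the 3 CALRins5 arrays above all arrays of the other vectors. The share of all probe sets separated in this way was not counted. The CALRins5 difference was 0.18 from CALRwt (unadjusted p 0.0404, adjusted p 0.687 in limma) and 0.19 from CALRdel52 (unadjusted p 0.0307, adjusted p 0.551). CALRdel52 against CALRwt, CALRins5 against CALRwt and CALRins5 against CALRdel52 each gave 0 called members (0, 1 and 1 at an unadjusted p under 0.05), where 0.0506%, 0.0759% and 0.0759% of main probe sets were called. The same counts of 0 were given by trend and robust moderation and by no moderation.

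In untreated cells, mutated against CALRwt gave 0 of 9 called members in limma (0 at an unadjusted p under 0.05; 0% of probe sets called), with differences between -0.09 for PRDX1 and 0.11 for GSR. CALRins5 and CALRdel52 cells were the furthest apart. SOD1 was 12.65 ± 0.05 with CALRins5 and 12.41 ± 0.07 with CALRdel52 (SD, n = 3), a difference of 0.24 (95% interval 0.07 to 0.40). Its arrays did not overlap between these vectors, a separation whose share over all probe sets was not counted. CAT was 11.42 ± 0.09 against 11.19 ± 0.08 (SD, n = 3), a difference of 0.23 (95% interval 0.05 to 0.41), and PRDX1 was 11.95 ± 0.06 against 11.76 ± 0.07, a difference of 0.19 (95% interval 0.02 to 0.36). These had unadjusted p values of 0.0093, 0.0182 and 0.0305 and limma adjusted p values of 0.214, 0.279 and 0.34, so that 0 of 9 members were called, where 1.13% of main probe sets were. With trend and robust moderation all 3 were called, and without moderation 0. CALRdel52 against CALRwt and CALRins5 against CALRwt gave 0 called members each (1 and 0 at an unadjusted p under 0.05, the 1 being PRDX1 at -0.19), where 0.0556% and 0.0101% of main probe sets were called. These 2 comparisons share the CALRwt arrays.

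Genes that work with these enzymes were read on their main probe sets in 7 lists, of which 72 of 77 genes were measured. With MEL over the 3 vectors 12 rose, 13 fell and 47 did not pass, against 18.6% of all main probe sets called higher and 18.1% lower. Of 14 measured thioredoxin partners, 5 rose and 3 fell. TXNRD2 and TXNRD1, the mitochondrial and cytosolic thioredoxin reductases, rose by 0.44 (SE 0.06, adjusted p 2.94e-05) and 0.29 (SE 0.05, adjusted p 0.000131), although the other TXNRD1 probe set did not go the same way. SRXN1, the sulfiredoxin that repairs overoxidised peroxiredoxins, rose by 0.41 (SE 0.05, adjusted p 6.74e-06), and TXNIP, which binds and inhibits thioredoxin, fell by 0.25. PRDX4, the peroxiredoxin of the endoplasmic reticulum, which was named after its value was seen, fell by 0.13 (adjusted p 0.0219). The median of the list was -0.02, against 0.04 for all main probe sets.

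SRXN1 went from 8.46 to 8.63 in untreated CALRwt cells to 9.02 to 9.10 with MEL. With CALRdel52 its untreated arrays spanned 8.46 to 8.52 and its MEL arrays 8.85 to 9.12, and with CALRins5 these spans were 8.55 to 8.62 and 8.64 to 8.87. No MEL group overlapped with its untreated group, and CALRins5 cells had the smallest step. Of all probe sets, 34.8%, 29.8% and 29.9% were without overlap in CALRwt, CALRdel52 and CALRins5 cells, in either direction. The response of mutated minus CALRwt cells was -0.20 with a limma adjusted p of 0.995. That test pools CALRdel52 with CALRins5 cells. For CALRins5 minus CALRwt alone, 0 of 54675 probe sets were called, SRXN1 included.

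In the glutathione system, 3 of 18 genes rose and 2 fell, with a median of 0.03. Of all main probe sets, 18.6% were called higher and 18.1% lower. GPX8, a peroxidase of the endoplasmic reticulum, rose by 0.90 (SE 0.06, limma adjusted p 1.08e-08), from group means of 5.87 to 5.99 in untreated cells to 6.74 to 6.96 with MEL. GCLM, the modifier subunit of the enzyme that starts glutathione synthesis, rose by 0.49 (SE 0.06, adjusted p 4.31e-06) on all 3 of its probe sets. GPX2, a peroxidase with a dim probe set here (mean 4.23), rose by 0.46, and the glutaredoxin GLRX3 fell by 0.17. Of 8 measured genes for NADPH supply, none rose and 4 fell, with a median of -0.22, beside the same shares of all main probe sets. NADK, which makes NADP from NAD, fell by 0.41 (SE 0.06, adjusted p 1.83e-05), with 1 of its 6 probe sets called in the opposite direction. The malic enzyme ME1 fell by 0.34, and TKT and PGD of the pentose phosphate pathway fell by 0.32 and 0.30. With the mean of its probe sets in place of the main one, PGD differed by -0.09 and was not called (adjusted p 0.168).

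In the list labelled copper delivery to SOD1, which also holds genes of other copper routes, 2 of 4 genes fell. For this list and those below, 18.6% of all main probe sets were called higher and 18.1% lower. Neither CCS, the copper chaperone for SOD1, nor COX17 was called. The copper chaperone ATOX1 fell by 0.22 (SE 0.04, limma adjusted p 0.00096), and the copper importer SLC31A1 fell by 0.17 on its main probe set (adjusted p 0.016), whereas its 2 other probe sets were called higher. Among sources of superoxide and peroxide, 1 of 7 NADPH oxidase genes rose (NOX5, by 0.29, with a mean of 4.95). Of 8 peroxisomal oxidases 1 rose, the dim HAO1 by 0.27, and 1 fell, the polyamine oxidase PAOX by 0.65 (SE 0.06, adjusted p 1.75e-07). Among 13 transcriptional regulators, 2 rose and 1 fell. MAFG, a small MAF partner of NRF2, rose by 0.35 (SE 0.05, adjusted p 5.15e-05), its relative MAFF fell by 0.39, and FOXO3, a forkhead factor that can drive SOD2 and CAT, rose by 0.28. None of the 72 genes was called in limma for mutated against CALRwt cells with MEL, untreated, or in response (5, 2 and 2 at an unadjusted p under 0.05).

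With the GAPDH 3′ to 5′ covariate, TXNIP, GLRX3, PGD, SLC31A1, NOX5 and HAO1 were no longer called, with adjusted p values from 0.0515 to 0.546, and the other genes named from these lists with MEL were. The difference of SLC31A1 was then -0.21 against -0.17 without the covariate, and that of TXNIP was -0.17 against -0.25. The differences came closer to 0 for GLRX3 (-0.06), PGD (-0.15), NOX5 (0.19) and HAO1 (0.12). PRDX4 was not examined in that way.

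The antioxidant element core was also searched before the starts of the called partner genes. Windows were used for 21 of these 25 genes, and 8 of them had the core before at least 1 start. Among them were GCLM, TXNRD1, GPX2, FOXO3, MAFF, PGD and ME1. By starts, 9 of 33 had the core, against 10.9% of all promoters, and genes with several starts have more places for a match. Genes with the core thus lay among those that rose and those that fell, and SRXN1, TXNRD2 and GPX8 had no match in these windows. TXNRD1 is shown because it recharges thioredoxin for the peroxiredoxins and held all 3 motifs (chr12:104215529-104215778, plus strand, the most upstream of 2 starts, RefSeq GRCh38.p14, 5′ to 3′). Its core lay 99 bases before the start, on the strand of the gene.
TXNRD1: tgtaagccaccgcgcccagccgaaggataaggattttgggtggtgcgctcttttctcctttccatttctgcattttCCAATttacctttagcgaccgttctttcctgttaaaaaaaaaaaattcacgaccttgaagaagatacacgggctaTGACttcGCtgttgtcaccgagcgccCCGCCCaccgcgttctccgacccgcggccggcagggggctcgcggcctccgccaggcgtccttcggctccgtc

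**Figure D4:**
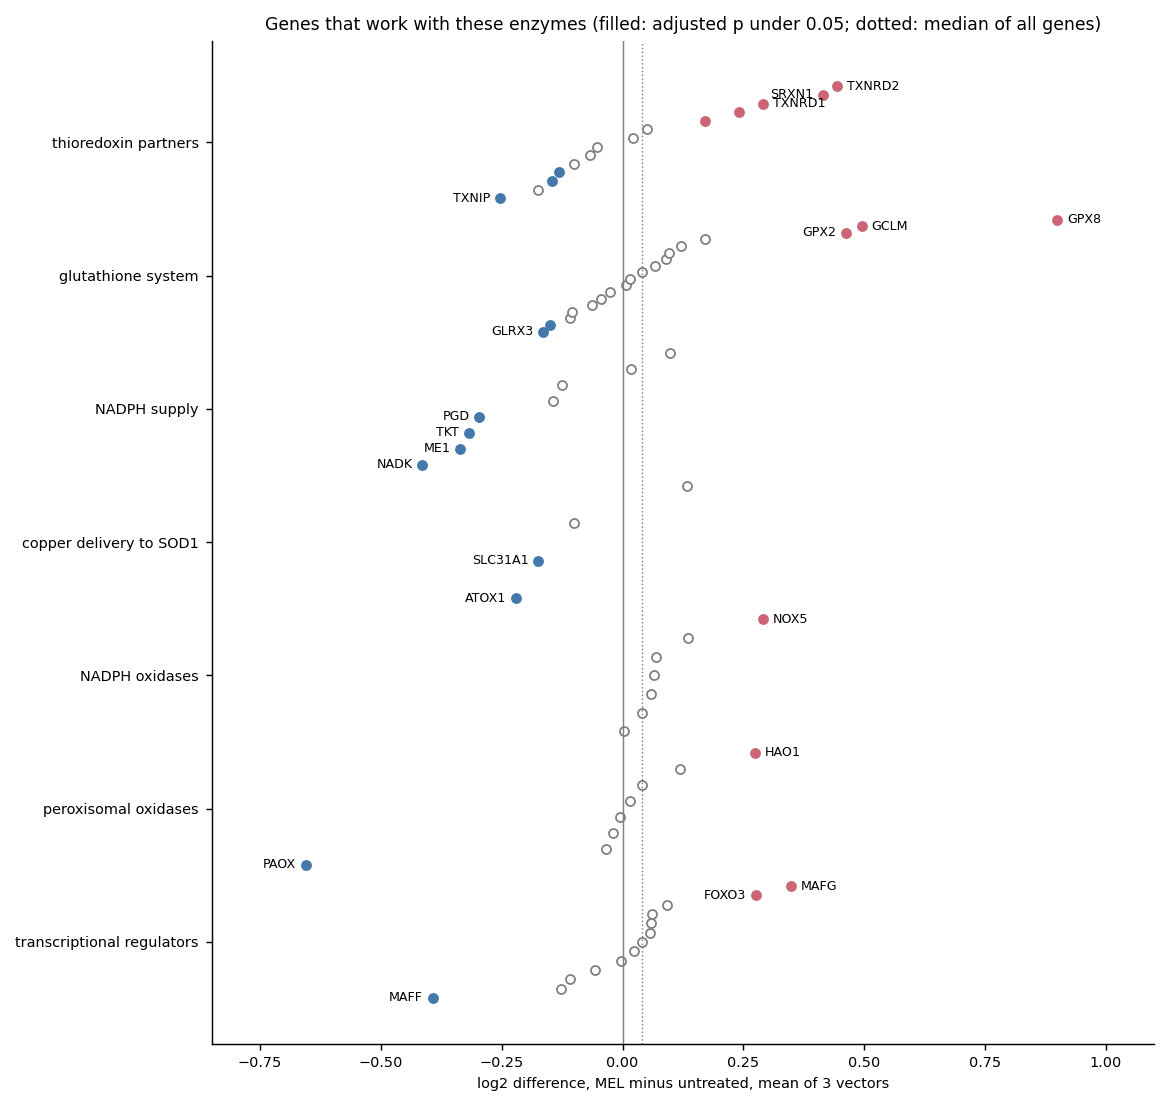
MEL minus untreated log2 difference, averaged over the vectors (horizontal axis), for the 72 measured genes of 7 lists (vertical axis), red where called higher, blue where called lower and open where the adjusted p was 0.05 or more, with the dotted line at the median of all main probe sets. The 4 called genes of NADPH supply lie to the left, and GPX8 at 0.90 lies furthest to the right.

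Genes with the pattern most like the called members were found by the root mean square difference over the 18 arrays, after each gene was centred on its own mean, among 12430 genes above the median level. For SOD1 they were MFF (0.056), a mitochondrial fission factor that fell by 0.43 with MEL, and MRPS9 (0.057), a mitochondrial ribosomal protein that fell by 0.48. For SOD2 they were RRM1 and MICU2 (0.108 for both), a ribonucleotide reductase subunit and a regulator of mitochondrial calcium uptake, which fell by 0.30 and 0.37. For PRDX6 they were EIF3I (0.042) and ALG6 (0.048), the latter with a fall of 0.19 and the former at -0.13 (limma adjusted p 0.0577). For comparison, the root mean square distance from its own mean was 0.236 for SOD1, 0.221 for SOD2 and 0.104 for PRDX6.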

How the data were processed

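Expression was measured on 18 arrays of transduced K562 cells, 3 for each of 6 groups. The deposited values are log2 signals that the authors made with RMA in Partek (background correction, quantile normalization and summary of the probes of each probe set), per the submitters' processing notes. Such values have no read depth, and the number of arrays limits the precision. The methods name another array model than the HG-U133 Plus probe sets in the file.

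Probe sets were named through the platform's annotation, in which 41097 have 1 gene, 1801 several and 11777 none. No 2 arrays were identical. Samples were grouped by the labels. Models were fitted on all 54675 probe sets with limma 3.58.1 (lmFit and eBayes, R 4.3.3), over the 6 groups for MEL effects, levels with MEL and responses, and over the 9 untreated arrays for untreated cells, for 15 comparisons, with p-values adjusted by Benjamini-Hochberg across the whole array and called under 0.05. The scripts were tested on simulated data. Alternatives were quantile normalization, array median centring, filters on dim or cross-hybridising probe sets, the mean probe set per gene, moderation options, an unadjusted threshold, subsets of arrays, the GAPDH covariate, a replicate block and leaving out each array. Tables and figures used Python 3.11.15, pandas 2.3.3 and matplotlib 3.10.9.

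All 10 members were named with all their probe sets. Of each partner list, up to 4 genes were named by size of change among those called with MEL over the 3 vectors. For each called member, the 2 genes with the closest pattern were named. The members, lists and tests were chosen with earlier results of these data known, as were the 2 arrays said to stand apart. The deviations of arrays from their group means correlated from -0.22 to 0.23 (median 0.057) between arrays of the same replicate number and from -0.25 to 0.25 (median -0.016) between arrays of different numbers, with 16 of 45 and 9 of 90 pairs over 0.1. No source used here ties the numbers to an experiment, so they were not taken as pairs. These correlations do not decide whether the same number marks a shared experiment.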

Additional observations from a re-analysis of the deposited data

How the results depend on the processing

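SOD1 and SOD2 were lower with MEL over the 3 vectors and called under every alternative run, with differences of -0.47 to -0.36 and -0.39 to -0.26. Of the values of single genes, 5471 kept their call or their lack of one, 37 lost the call and 32 gained it. Values called in neither fit were not compared for direction, and some of them changed sign, such as those of PRDX1 and PRDX2. SLC31A1 turned to 0.10 (adjusted p 0.137) with the mean of its probe sets. The members called over the 3 vectors ranged from 2 to 5. They were 5 in place of 3 after median centring or with the mean of all probe sets (CAT and GSR added), and 2 with quantile normalization, the GAPDH covariate or without both arrays that stood apart (PRDX6 lost). They were also 2 without cross-hybridising probe sets, where PRDX6 was not tested. In CALRwt cells they were 3 in place of 2 with the mean of all probe sets (CAT added, adjusted p 0.0176). In CALRdel52 cells they were 2 in place of 1 with trend and robust moderation and 0 with only the groups compared. In CALRins5 cells they were 2 in place of 1 with the mean of all probe sets and 0 with the GAPDH covariate (SOD1 at -0.35, adjusted p 0.0658). CALRins5 against CALRdel52 untreated gave 3 with trend and robust moderation and 1 at an unadjusted p under 0.01, in place of 0. Leaving out each array gave 3 to 4 over the vectors, 1 to 2 with CALRwt, 0 to 1 with CALRdel52, 1 to 2 with CALRins5 and 0 in the other comparisons. With the replicate block, which has no stated basis in the design, 4 members were called over the vectors (GSR added, adjusted p 0.0467), 2, 1 and 1 within vectors and 0 elsewhere, and 15 of 18 arrays correlated best with an array of their own number, a hint from the data and not from the design. The cause of these changes was not tested.

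Calls over the vectors were 18402 of 54675 probe sets, against 11451 of 39173 without cross-hybridising probe sets, 7863 of 19775 on gene means and 8682 of 54675 with the GAPDH covariate. The totals are the same in the counts that follow, so that the smaller counts without cross-hybridising probe sets and on gene means come with fewer features tested. With CALRwt they were 8616, against 4998, 3974 and 5264, and 5068 to 9715 when leaving out each array. With CALRdel52 they were 6671, against 3926, 2946 and 4357, 4133 without both arrays that stood apart, 2689 with only the groups compared and 3081 to 7722 when leaving out each array. With CALRins5 they were 5512, against 2930, 2670 and 1589, 3341 and 3496 in the same settings, and 2737 to 6171.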
